A study of Gallus gallus with 12 samples.

Results

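The inner face of the circumferential smooth muscle was compared with the subepithelial mesenchyme in the midgut of control chick embryos (Gallus gallus) at embryonic day 14. RNA was measured by Light-seq, in which RNA is copied into cDNA within the section, hand-drawn regions are barcoded with light, and the cDNA is then collected and sequenced. The members were the 8 regions that the column names of the count table assign to these layers of control midgut, 4 of each layer, of 36 regions in all. They came from 4 of the 12 samples. Both regions of a sample were sequenced in 1 library and told apart by barcode, so each circumferential region was set against the mesenchyme of its own sample. The design text names the mesenchyme as the layer of its own comparisons between conditions, so the contrast of layers described here is a further use of the same libraries.

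Control midgut had been given RCAS-mGFP, a replication-competent avian retrovirus carrying a green fluorescent protein. The virus was electroporated into the splanchnic lateral plate mesoderm, at the level of the midgut, at Hamburger-Hamilton stage 17 in embryos incubated at 38 °C. Midgut given RCAS-Hoxd13, which carries the transcription factor Hoxd13, and hindgut of RCAS-mGFP embryos, with 4 samples each, served for comparison, and all 3 groups had thus received an RCAS construct. It is not stated in the labels whether replicates stem from different embryos, or which cells carried the virus. The p-values of the edgeR fit measure only the spread left among regions once differences between samples are taken out. That spread was estimated over all 36 regions and may be technical.

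Smooth muscle contracts when calcium and calmodulin switch on myosin light chain kinase, which phosphorylates the myosin light chain and lets smooth muscle myosin pull on actin filaments. Tropomyosin, caldesmon and calponin tune this reaction on the thin filament, and desmin filaments and adhesion plaques carry the force through and out of the cell. The subepithelial mesenchyme lies between the muscle and the epithelium, holds fibroblasts that lay down matrix, and answers epithelial signals such as Hedgehog proteins.

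The mesenchyme regions held 303637 to 427619 counts each and the circumferential regions 26798 to 40017, so the mesenchyme of a sample was 7.68 to 16.0 times deeper. At a count of 0 in a single region, up to 3 counts remain possible at 95% confidence, for counting error only. This corresponded to 6.80 to 9.84 CPM (counts scaled to a common library total) in mesenchyme and to 69.7 to 117 CPM in muscle. Of 17138 genes, 614 passed the low-count filter, which asks for about 224 CPM in at least 4 of the 36 regions. Mitochondrially encoded transcripts took 37.8 ± 1.35% (SD, n = 4) of the counts in mesenchyme and 39.2 ± 3.34% in muscle. These are counts from whole regions, in which fewer cells of a type and less RNA per cell cannot be told apart.

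Genes of the contractile apparatus were higher in the circumferential muscle, and genes of the gut epithelium were lower there. In all, 108 of the 614 genes differed between the layers (17.6%; edgeR quasi-likelihood test with the sample as a block, Benjamini-Hochberg adjusted p under 0.05). Of these, 65 were higher in muscle (10.6% of the genes tested) and 43 were lower (7.00%). The median difference over all genes tested was 0.02 on the log2 scale. A higher level in every one of the 4 pairs was seen for 58 of the 65, and a lower level in every pair for 38 of the 43. These genes were picked by a test on the same 4 pairs, so this agreement is no separate evidence. The filter could let a gene in through the muscle regions where it was high. Of the 371 genes that reached its level in at least 4 mesenchyme regions, 34 were higher in muscle and 42 lower, with a median of -0.09, so that the balance between the directions depended on the filter. In the same way a gene could enter through the mesenchyme alone. Of the 581 genes that reached the filter level in at least 4 muscle regions, 37 were lower. Here and below, such regions were counted over all 3 groups, so these genes could still lie under the level in midgut. Without the pairing of regions by sample, 47 genes passed, 39 of them higher and 8 lower. Leaving out midgut replicate 3 or 4 gave 61 and 59 genes. With no filter on low counts, where the median of all genes moved to -0.74, 172 genes passed, 10 of them higher and 162 lower.

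**Figure D1:**
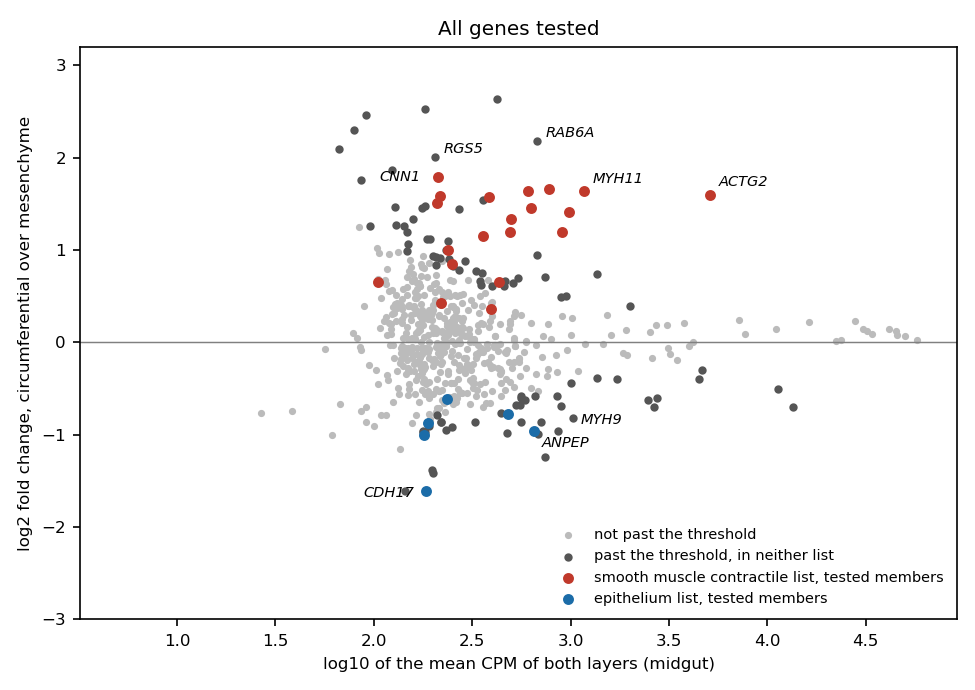
Log2 difference between circumferential muscle and mesenchyme (vertical axis) against the log10 of the mean CPM of both layers (horizontal axis) for the genes tested in midgut. The tested members of the contractile list (red) all lie above 0, up to 1.80, and those of the epithelium list (blue) all lie below 0, down to -1.61, while the median of all genes is 0.02.

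By p-value, the actin ACTG2 and the myosin MYH11 came first among the genes that were higher. ACTG2, the enteric smooth muscle gamma-actin, stood at 3122, 1846, 2356 and 2692 CPM in the mesenchyme of replicates 1 to 4 and at 6453, 4113, 9828 and 10700.3 CPM in their muscle. Every muscle region lay above every mesenchyme region, with replicate 2 lowest in both layers and replicates 3 and 4 highest in muscle. The means were 2504 ± 539 and 7774 ± 3051 CPM (SD, n = 4), a log2 difference of 1.60 ± 0.15 (SE; edgeR adjusted p = 2.63e-14), or 3.03-fold. MYH11, the smooth muscle myosin heavy chain, was at 693, 437, 568 and 553 CPM in mesenchyme and 2073, 976, 1617 and 2460.5 CPM in muscle. The layers did not overlap, replicate 2 was again lowest in both, and the log2 difference was 1.64 ± 0.17 (edgeR adjusted p = 9.81e-13). The myosin regulatory light chain MYL9, which the kinase phosphorylates, rose from 294 ± 40.4 to 924 ± 278 CPM, by 1.64 ± 0.21 on the log2 scale. The essential light chain MYL6 differed by 1.33 ± 0.21 and MYL4, a light chain best known from embryonic and atrial muscle, by 1.44 ± 0.28. ACTA2, the vascular type of smooth muscle actin that embryonic gut muscle also makes, differed less, at 1.16 ± 0.23, from 224 ± 42.1 to 494 ± 53.3 CPM. The skeletal actin ACTA1, at 82.3 and 128 CPM, did not pass (log2 0.65 ± 0.42, edgeR adjusted p = 0.306). The actin genes have nearly identical coding sequences, and no source used here states how shared reads were counted.

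The kinase and the thin-filament regulators were higher as well. MYLK, the myosin light chain kinase gene, was at 639, 478, 473 and 569 CPM in mesenchyme and 1251, 1046, 1693 and 1717 CPM in muscle, without overlap (log2 1.42 ± 0.17, edgeR adjusted p = 5.31e-10). CNN1, which encodes the thin-filament protein calponin, had 120.1, 54.6, 112 and 98.2 CPM in mesenchyme and 235, 163, 455 and 458 CPM in muscle. Replicates 3 and 4 were about alike in muscle and above replicates 1 and 2, and all 4 exceeded the highest mesenchyme region (log2 1.80 ± 0.31, edgeR adjusted p = 5.44e-06). The mesenchyme values of CNN1 lay under the filter level of about 224 CPM, so the filter could have let it in through the muscle. The tropomyosin genes TPM2 and TPM1 differed by 1.20 ± 0.17 and 1.19 ± 0.24. TPM2 was close to even among the muscle regions, at 1369, 1069, 1339 and 1259 CPM, whereas TPM1 spread over 626, 279, 783 and 1087 CPM, its replicate 2 lying within the mesenchyme range of 266 to 331 CPM. CALD1, the gene of caldesmon, named after its values were seen, differed by 1.51 ± 0.31 (edgeR adjusted p = 0.000115).

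Genes that link filaments to each other and to the cell border followed. TAGLN, which encodes the actin-binding protein transgelin, had 394, 295, 331 and 455 CPM in mesenchyme and 1329.7, 720.4, 1263 and 1431 CPM in muscle, a log2 difference of 1.67 ± 0.18 (edgeR adjusted p = 3.19e-12). DES, the gene of the intermediate filament desmin, had 378, 295, 299 and 372 CPM in mesenchyme and 1056, 790.2, 859 and 1001 CPM in muscle (log2 1.45 ± 0.20, edgeR adjusted p = 1.45e-08). Neither gene overlapped between layers. SYNPO2, an actin-bundling protein of muscle, and CSRP1, a LIM-domain protein, differed by 1.58 ± 0.25 and 1.59 ± 0.32. VCL, the adhesion-plaque protein vinculin, passed with a smaller difference of 0.85 ± 0.29 (edgeR adjusted p = 0.0315). Among genes named after their values were seen, the actin crosslinker ACTN1 (1.00 ± 0.28) and the LIM protein PDLIM7 (0.65 ± 0.24) passed. The filament crosslinker FLNA (0.43 ± 0.29, edgeR adjusted p = 0.335) and the adhesion protein LPP (0.36 ± 0.23, edgeR adjusted p = 0.284) did not.

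In the contractile list as a whole, 20 of the 29 members in the table passed the filter, and 17 of them were higher and 0 lower, against 10.6% and 7.00% of all genes tested. The median log2 difference was 1.37, against 0.02 for all genes tested. All 17 were higher in 4 of 4 pairs, which a test on these same pairs favours. In 15, every muscle region exceeded every mesenchyme region. That pattern was met by 10.9% of all genes tested, and its reverse by 9.28%. In the contractile list 5 of the 20 passed the filter through the muscle alone. Some of the higher members had means in midgut mesenchyme under the filter level of about 224 CPM. These were CNN1 (96.1 CPM), CSRP1 (106), CALD1 (109), ACTN1 (158), VCL (182) and SYNPO2 (191). The 15 members that reached its level in at least 4 mesenchyme regions of all 3 groups included 13 of the higher ones and had a median of 1.33. These regions were not of midgut alone, so the 15 are not free of the filter's effect in midgut. Without the sample block, 14 of the 20 passed, and with 1 midgut replicate left out 14 to 16 of 21. With no filter on low counts 5 of 29 passed, with a median of 0.57 where that of all genes was -0.74.

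**Figure D2:**
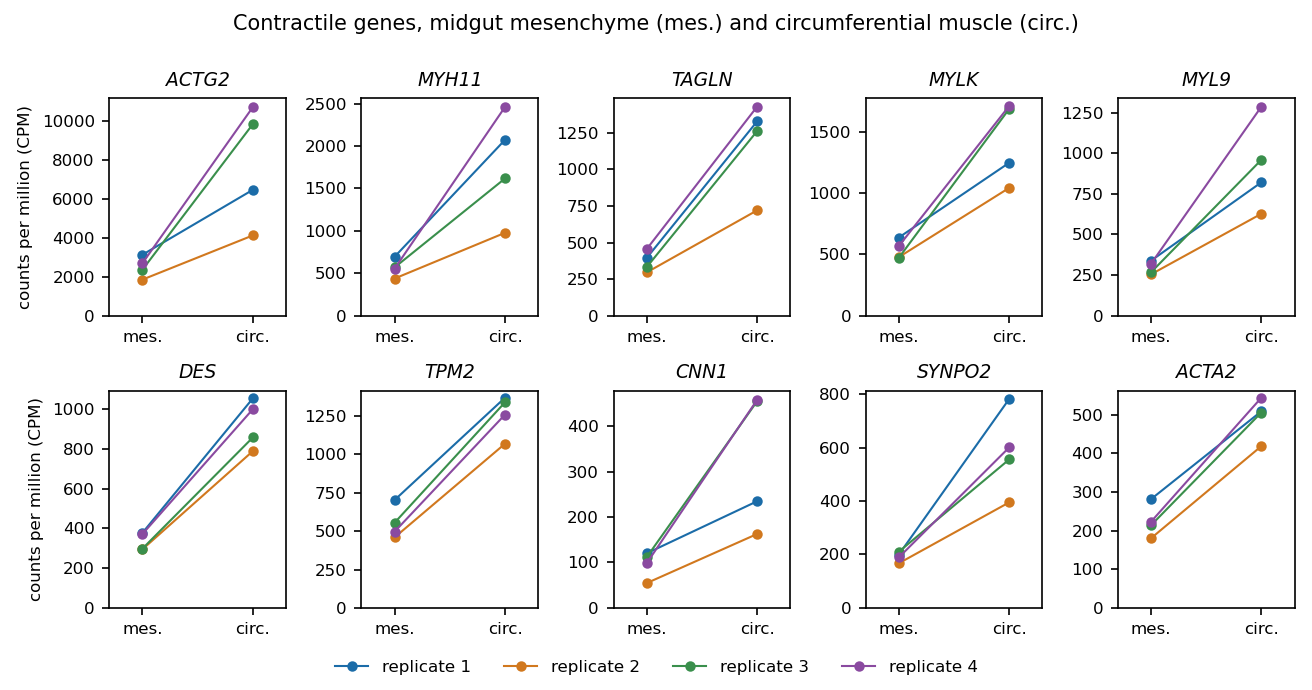
CPM of 10 contractile genes in the mesenchyme (mes.) and circumferential muscle (circ.) of each midgut sample, with a line joining the 2 regions of a sample. All lines rise from left to right, and replicate 2 (orange) has the lowest muscle value for each gene shown, such as 4113 CPM for ACTG2.

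Several genes outside the contractile list stood among the lowest p-values. HSPB1, a small heat shock protein that acts on actin filaments, had 229, 122, 184 and 199 CPM in mesenchyme and 587, 256, 505 and 801 CPM in muscle, without overlap (log2 1.54 ± 0.23, edgeR adjusted p = 2.54e-07). RGS5, a regulator of G-protein signalling known from pericytes and vascular smooth muscle, went from 92.9, 61.0, 75.5 and 98.2 CPM to 235, 209, 379 and 486 CPM. Every muscle region again lay above every mesenchyme region, and the log2 difference of 2.00 ± 0.33, or 4.01-fold, exceeded that of ACTG2 and MYH11 in size. RGS5 passed the filter through the muscle alone. RAB6A, a small GTPase of Golgi transport, passed as well (log2 2.18 ± 0.34, edgeR adjusted p = 3.95e-07), but its values rested on 1 sample. Replicate 2 had 789.7 CPM in mesenchyme and 4323 CPM in muscle, whereas the other replicates had 20.7 to 45.9 and 50.5 to 85.8 CPM. Without replicate 2 the difference was 1.09, with an edgeR adjusted p of 0.456.

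**Figure D3:**
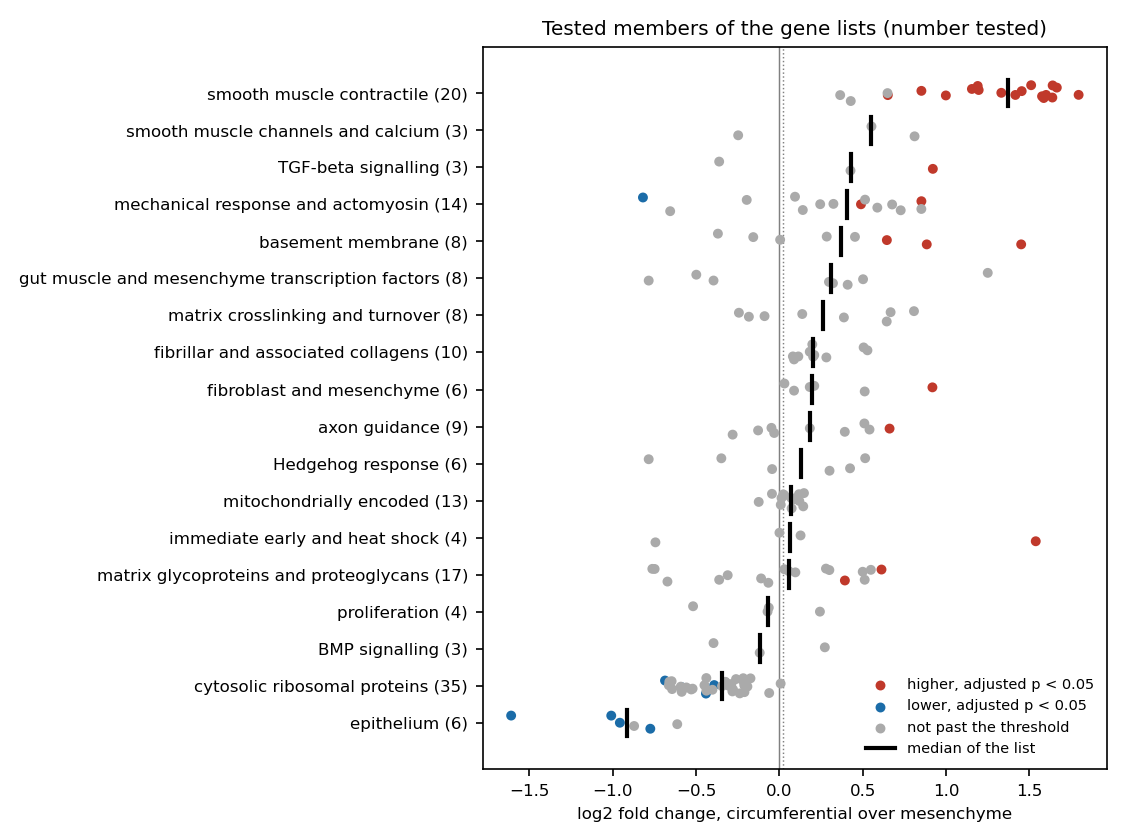
Log2 differences between circumferential muscle and mesenchyme for the tested members of the gene lists that had at least 3 of them. Each point is a gene, red where it was higher in muscle, blue where it was lower and grey where it did not pass, the bars are list medians and the dotted line is the median of all genes. The contractile list lies farthest right (median 1.37) and the epithelium list farthest left (median -0.91).

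Matrix genes differed in a few places. In the basement membrane list 3 of 8 tested members were higher and 0 lower (median 0.37), against 10.6% and 7.00% of all genes tested. Of the 7 that reached the filter level in at least 4 mesenchyme regions, which leaves out COL4A2, 2 were higher and the median was 0.28, and with no filter 0 of 12 were higher and 1 lower. COL4A2, a chain of the collagen IV network, had 125, 70.6, 82.0 and 109 CPM in mesenchyme and 235, 256, 303 and 229 CPM in muscle, without overlap (log2 1.45 ± 0.35, edgeR adjusted p = 0.00121). Its partner chain COL4A1 differed by 0.88 ± 0.26 and the laminin chain LAMB1 by 0.65 ± 0.22, whereas the epithelial laminin chain LAMA5, at -0.37 ± 0.19, did not pass (edgeR adjusted p = 0.189). Without midgut replicate 4, COL4A2 alone of 9 tested members passed. None of the 10 fibrillar and associated collagens passed, with 0 higher and 0 lower, beside 10.6% and 7.00% of all genes tested, and a median of 0.20. With no filter on low counts 1 of the 10 collagens was lower. COL1A1, the main chain of collagen I and the most abundant of them here in CPM, had 7646, 7843, 7111 and 7019.6 CPM in mesenchyme and 7196, 10551, 7200.1 and 6809 CPM in muscle. The layers overlapped, with 1 high muscle value in replicate 2 (log2 0.09 ± 0.11, edgeR adjusted p = 0.636; -0.12 without that replicate). COL3A1, of collagen III, was at 3517 ± 283 and 4059 ± 375 CPM (log2 0.21 ± 0.12, edgeR adjusted p = 0.222). The fibronectin gene FN1, a glycoprotein to which cells attach, rose by 0.39 ± 0.13 and PRELP, a leucine-rich proteoglycan, by 0.61 ± 0.22. They were the 2 of 17 tested glycoproteins and proteoglycans that passed, a share near the 10.6% of all genes tested that were higher. With no filter on low counts both values were below 0, at -0.24 and -0.00649. None of the 8 tested members of the crosslinking and turnover list passed, beside 10.6% higher and 7.00% lower of all genes tested. The values nearest to the threshold were those of PLOD1, a lysyl hydroxylase (0.81 ± 0.34, edgeR adjusted p = 0.0893), and LOX, the lysyl oxidase (0.67 ± 0.28, edgeR adjusted p = 0.0935).

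Of 6 tested fibroblast genes 0 passed as higher in the mesenchyme, beside 7.00% of all genes tested. With so few members these shares cannot be told apart. In the fibroblast list 1 of 6 tested members passed, VIM, the intermediate filament gene of mesenchymal cells, and it was higher in muscle (log2 0.92 ± 0.30, edgeR adjusted p = 0.0248). VIM had 199, 112, 148 and 142 CPM in mesenchyme and 196, 163, 253 and 515 CPM in muscle, so the layers overlapped and replicate 4 was far above the rest. It passed the filter through the muscle alone, and of the other 5 members, which reached the filter level in mesenchyme, 0 were higher, beside 10.6% of all genes tested. LUM, the collagen-binding proteoglycan lumican, did not pass (log2 0.51 ± 0.27, edgeR adjusted p = 0.197). PDGFRA, the receptor that marks subepithelial fibroblasts, fell under the filter, with 189 counts in mesenchyme and 16 in muscle. Scaled to the library totals, the ratio of muscle to mesenchyme was 0.854 (95% interval 0.478 to 1.42).

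Signalling genes were mostly too low to test or did not pass. FGFR1, a fibroblast growth factor receptor, had 127, 106, 128 and 106 CPM in mesenchyme and 313, 325, 152 and 229 CPM in muscle (log2 1.12 ± 0.31, edgeR adjusted p = 0.00677). FGFR1 was the 1 of 2 tested PDGF and FGF genes that passed, beside 10.6% of all genes tested that were higher. It passed the filter through the muscle alone. LTBP2, which belongs to the latent TGF-beta binding protein family, rose by 0.92 ± 0.29 (edgeR adjusted p = 0.0195), while LTBP1 did not pass (0.43 ± 0.24, edgeR adjusted p = 0.228). LTBP2 was the 1 of 3 tested TGF-beta genes that passed, beside the same 10.6%, and it also passed the filter through the muscle alone. NRP2, a receptor for class 3 semaphorins and VEGF, was the 1 of 9 axon guidance genes that passed (0.66 ± 0.24, edgeR adjusted p = 0.0475). That share is near the 10.6% of all genes tested that were higher. In the Hedgehog list 0 of 6 tested genes passed, beside 10.6% higher and 7.00% lower of all genes tested. Its co-receptors CDON (0.42 ± 0.27) and BOC (0.51 ± 0.36) had edgeR adjusted p-values of 0.304 and 0.351. The BMP (3 tested), WNT (1) and NOTCH (2) lists had 0 genes that passed, beside the same shares of all genes tested. With so few members this says little about these lists, and no retinoic acid gene was abundant enough to test. HOXD13, in the posterior HOX list, was tested only because of the Hoxd13 samples and had 0 counts in both midgut layers.

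Among 8 tested transcription factors of gut muscle and mesenchyme, 0 passed, with a median of 0.31. The 2 that reached the filter level in at least 4 mesenchyme regions had a median of -0.45. Of all genes tested 10.6% were higher and 7.00% lower. MYOCD, the coactivator of smooth muscle genes, had 79.3, 41.7, 36.1 and 46.5 CPM in mesenchyme and 78.2, 93.0, 101 and 200.3 CPM in muscle, on 77 and 17 counts in all (log2 1.25 ± 0.52, edgeR adjusted p = 0.0893). Muscle exceeded mesenchyme in 3 of 4 pairs. TBX3 (-0.50 ± 0.26), MEIS1 (0.50 ± 0.33) and FOXF2 (-0.78 ± 0.49) also missed the threshold. Of 3 tested channel and calcium genes 0 passed, beside the same shares of all genes tested. ATP2A2, the calcium pump of the sarcoplasmic reticulum, missed the threshold (0.81 ± 0.32, edgeR adjusted p = 0.0697).

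MYH9, which encodes a non-muscle myosin heavy chain, was lower in muscle, with 1230.2, 1368, 1349 and 1306 CPM in mesenchyme and 665, 837, 884 and 572 CPM in muscle. All muscle regions lay below all mesenchyme regions (log2 -0.82 ± 0.18, edgeR adjusted p = 0.000272). In the list of mechanical response and actomyosin genes 2 of 14 were higher, VCL and the integrin linker TLN1 (0.49 ± 0.17), 1 was lower, MYH9, and the median was 0.41. Both shares were near those of all genes tested, 10.6% higher and 7.00% lower. Of the 10 that reached the filter level in at least 4 mesenchyme regions, 1 was higher and 1 lower, and their median was 0.19. TLN1 was at -0.14 with no filter on low counts. COTL1, an actin-binding protein, did not pass (-0.66 ± 0.25, edgeR adjusted p = 0.0523).

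Several epithelial genes were lower in muscle, although 3 genes known only by Ensembl identifiers had lower p-values than KRT7, the first of them. KRT7, a keratin of simple epithelia, had 922, 1059, 1279.7 and 1324 CPM in mesenchyme and 235, 604, 935 and 544 CPM in muscle (log2 -0.96 ± 0.20, edgeR adjusted p = 0.000163). Its values were lower in muscle in every pair, although replicate 3 of muscle overlapped replicate 1 of mesenchyme. ANPEP, a brush-border aminopeptidase, went from 677, 835, 988 and 923 CPM to 469, 372, 505 and 429 CPM, without overlap (log2 -0.96 ± 0.21, edgeR adjusted p = 0.000483). CDH17, the intestinal cadherin, went from 238, 286, 289 and 292 CPM to 156, 139, 50.5 and 28.6 CPM, with replicates 3 and 4 of muscle lowest and under 3 counts each (log2 -1.61 ± 0.38, edgeR adjusted p = 0.00114). The muscle values of CDH17 rested on 13 counts in all. DSP, the desmosome protein desmoplakin, differed by -0.99 ± 0.23, and KLF5, a transcription factor of proliferating crypt epithelium in mammals, by -0.87 ± 0.22. The receptor kinase ERBB2 (-1.38 ± 0.35), the gut peptide gene GUCA2B (-0.63 ± 0.21) and the carboxypeptidase CPD (-1.61 ± 0.41) were lower too. So were the membrane-binding protein ANXA2 (-0.76 ± 0.24), the calcium-binding protein S100A11 (-0.87 ± 0.30), the glycolytic enzyme ENO1 (-0.58 ± 0.18) and TPT1 (-0.58 ± 0.19), a widely expressed gene of growth control.

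In the epithelium list 25 of 35 members were in the table and 6 were tested, of which 4 were lower and 0 higher, against 7.00% and 10.6% of all genes, with a median of -0.91. The 4 were ANPEP, CDH17, the adherens junction cadherin CDH1 (-0.77 ± 0.23) and the brush-border myosin MYO1A (-1.01 ± 0.35). All 6 tested members reached the filter level in at least 4 mesenchyme regions. In at least 4 muscle regions only 4 members did so, of which 3 were lower, and the rest passed the filter through the mesenchyme alone. EPCAM, the epithelial adhesion molecule, had 254, 266, 348 and 303 CPM in mesenchyme and 39.1, 256, 253 and 172 CPM in muscle and did not pass (log2 -0.61 ± 0.29, edgeR adjusted p = 0.145). Muscle was lower in every pair, but by little in replicate 2. The apolipoprotein gene APOA1, named after its values were seen, did not pass either (-0.87 ± 0.34, edgeR adjusted p = 0.0617). Summed over the 25 members, epithelial transcripts reached 2873 to 3836 CPM in mesenchyme and 1291 to 2324 CPM in muscle, without overlap. In muscle, 6 of the 25 were at 0, FABP2, FABP6, SLC5A1, TFF2, OLFM4 and PIGR. In mesenchyme these had 11, 3, 26, 0, 1 and 3 counts in all. Their mean there was at most 19.0 CPM, under the 69.7 to 117 CPM that a 0 in a single muscle region leaves possible. For SLC5A1, the highest of them, the ratio of pooled counts had a 95% interval of 0 to 1.54, for counting error only. Their zeros therefore do not show a difference between the layers. The epithelium was not among the regions barcoded, and its part in the mesenchyme values was not tested. Without the sample block 1 of the 6 passed, and without midgut replicate 3 or 4 it was 2 of 6, with medians of -0.87 and -0.86. With no filter 8 of 25 were lower.

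**Figure D4:**
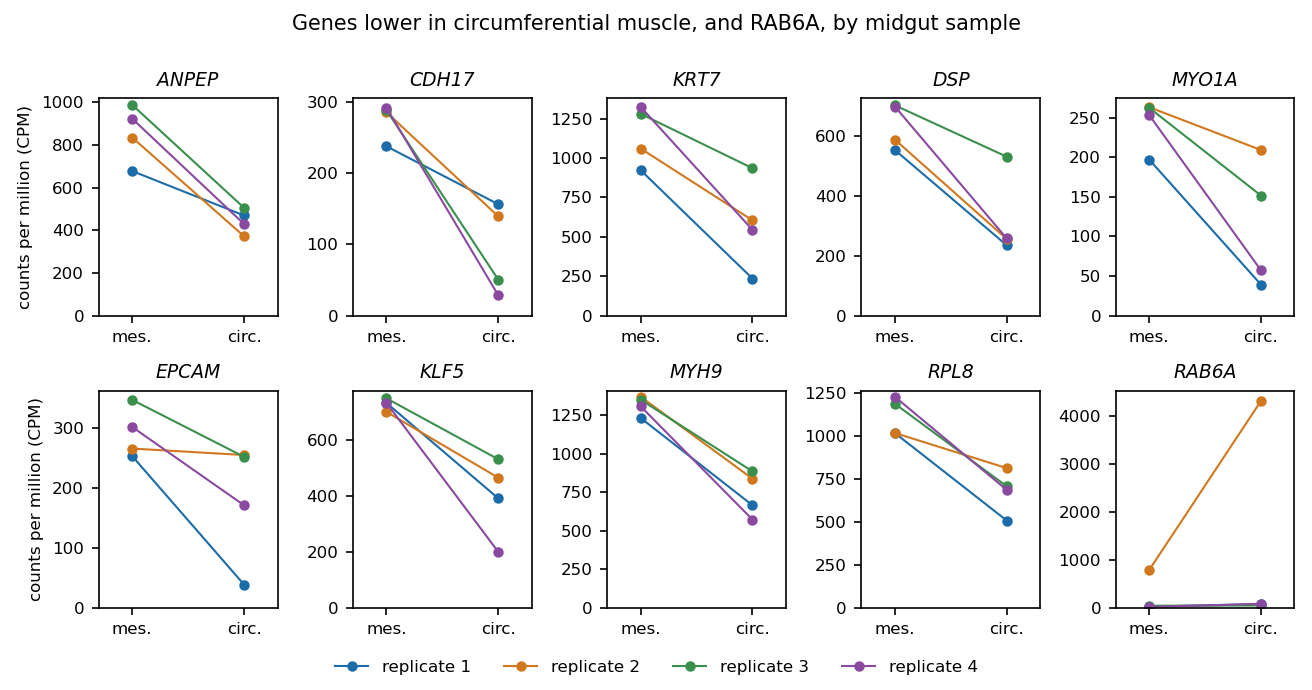
CPM of 9 genes with lower values in muscle, and of RAB6A, in the mesenchyme (mes.) and circumferential muscle (circ.) of each midgut sample. A line joins the 2 regions of a sample. ANPEP, CDH17, MYO1A and EPCAM are from the epithelium list, MYH9 from the actomyosin list and RPL8 from the ribosomal list. KRT7, DSP and KLF5 are in no list and were named for their low p-values. Lines fall in every sample for the first 9 genes, of which EPCAM did not pass, and RAB6A rises to 4323 CPM in replicate 2 alone.

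Ribosomal protein genes mostly had fitted values below 0, but few passed. Of 35 tested, 4 were lower, a share near the 7.00% of all genes tested, and 0 were higher, beside 10.6%. The median was -0.34, and 34 fitted values were below 0, beside 296 of all 614. Without the sample block or by limma voom 1 of the 35 passed. With the 8 midgut regions alone 1 of 55 passed, and with 1 midgut replicate left out 1 to 3 did. With RLE factors it was 5 of 35, and with no filter on low counts 15 of 69. RPL8, a protein of the large subunit, had 1017, 1018, 1188 and 1228 CPM in mesenchyme and 508, 813, 707 and 687 CPM in muscle, without overlap (log2 -0.69 ± 0.18, edgeR adjusted p = 0.00297). RPLP0 (-0.58 ± 0.20), RPL4 (-0.39 ± 0.14) and RPS10 (-0.44 ± 0.16) were the others. RPSAP58, whose symbol names a copy of the ribosomal protein SA gene, fell by 0.61 (SE 0.13; edgeR adjusted p = 0.00025). Reads of ribosomal genes and their copies may be shared, so single members are uncertain. Their summed level was 19776 to 22155 CPM in mesenchyme and 15096 to 17709 CPM in muscle. None of the 13 mitochondrially encoded genes passed, with 0 higher and 0 lower, beside 10.6% and 7.00% of all genes tested, and a median of 0.07. For CYTB, of complex III, the difference was 0.15 ± 0.09 (edgeR adjusted p = 0.248). With no filter on low counts CYTB passed as lower, at -0.48 (edgeR adjusted p = 0.000966).

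The smaller differences often needed all 4 pairs. Of the 108 genes, 42 passed with each midgut replicate left out in turn, among them 14 of the 17 contractile genes, HSPB1, RGS5, COL4A2, KRT7, ANPEP, CDH17, DSP, MYH9 and RPL8. The call ended without replicate 2 for FGFR1 (0.81), without replicate 4 for COL4A1 (0.63) and KLF5 (-0.66), without 1 or 3 for ACTN1 (0.89 and 0.91), and without 3 or 4 for ENO1 (-0.47 and -0.56) and VIM (0.96 and 0.43). It ended without 1, 3 or 4 for PDLIM7, ANXA2, TPT1, GUCA2B, S100A11, CDH1, MYO1A, LAMB1, TLN1, PODXL and RPLP0, without 2, 3 or 4 for VCL and NRP2, and without 1, 2 or 3 for LTBP2. FN1, PRELP, RPL4 and RPS10 passed in none of these 4 fits, and neither did 5 genes named after their values were seen, ACE, CORO1C, ILK, NFIA and PALM2AKAP2. The other way, COTL1 (-1.19) and HBA1 (1.12) passed without replicate 3.

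Markers of other cells that the regions could hold were mostly under the filter. Of the enteric neuron and glia list 2 of 37 members were tested and neither passed, beside 10.6% higher and 7.00% lower of all genes tested. They were NOS1, the nitric oxide synthase of inhibitory motor neurons (0.90 ± 0.36, edgeR adjusted p = 0.0725), and TUBB3, neuronal tubulin (0.81 ± 0.36, edgeR adjusted p = 0.116). The list summed to 985 to 1146 CPM in mesenchyme and 1369 to 1574 CPM in muscle, with 14 members at 0 in muscle and 3 at 0 in mesenchyme. A 0 in a single muscle region leaves up to 69.7 to 117 CPM possible, and less where all muscle regions are at 0. ELAVL4, a neuronal RNA-binding protein, had 173 counts in mesenchyme and 22 in muscle, and SOX10, a transcription factor of enteric progenitors and glia, had 33 and 4. KIT, the receptor that marks interstitial cells of Cajal, had 65 counts in mesenchyme and 11 in muscle. Scaled to the library totals, the ratio of muscle to mesenchyme was 1.28 (95% interval 0.784 to 2.01) for ELAVL4. It was 1.22 (0.315 to 3.44) for SOX10 and 1.71 (0.813 to 3.26) for KIT, so each interval included 1. The endothelial list summed to 303 to 351 CPM in mesenchyme and 209 to 508 CPM in muscle, with 5 of 21 members at 0 in muscle and 1 in mesenchyme. The immune list summed to 144 to 194 and 75.8 to 313 CPM, with 7 of 16 at 0 in muscle and 3 in mesenchyme. The pericyte list summed to 1215 to 2141 and 1838 to 2509.9 CPM, with ANGPT1 at 0 in muscle and at 3 counts in mesenchyme. RGS5 was the 1 of 2 tested pericyte genes that passed, beside 10.6% of all genes tested that were higher, and it passed the filter through the muscle alone. The globins HBA1 (0.88 ± 0.34) and HBAD (0.97 ± 0.43) did not pass, and the erythroid list ran from 193 to 326 CPM in mesenchyme and 202 to 887 CPM in muscle. PODXL, a surface sialomucin of mesothelium and endothelium, was lower in muscle (-0.68 ± 0.25, edgeR adjusted p = 0.0441) and was the 1 member of the mesothelium list tested. Of all genes tested 7.00% were lower. The part of any of these cells in the differences above was not tested.

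Genes under the filter were described by the ratio of their pooled counts, scaled to the summed TMM-scaled library totals of each layer, with an exact 95% interval for counting error only. At 20 or more counts over both layers, the interval lay above 1 for 2.53% of 5727 such genes and below 1 for 2.29%. In the contractile list it lay above 1 for 3 of 8, the creatine kinase CKB at 3.09 (95% interval 1.85 to 4.99), the filament protein SYNM at 2.69 (95% interval 1.3 to 5.17) and smoothelin, SMTN, at 2.37 (95% interval 1.29 to 4.14). Of the channel genes it did so for 2 of 11, the ryanodine receptor RYR2 (16 counts in mesenchyme and 8 in muscle) and the L-type calcium channel subunit CACNA1C (102 and 20). Of the transcription factors it did so for 3 of 23. HAND1, a transcription factor of heart and lateral plate mesoderm, had 3, 3, 4 and 2 counts in mesenchyme and 3, 1, 1 and 3 in muscle, a ratio of 6.73 (95% interval 2.39 to 17.9). NKX3-2, a homeobox gene of gut mesoderm, had 11, 6, 3 and 6 and 2, 2, 2 and 4 counts, a ratio of 3.88 (95% interval 1.67 to 8.32), and for FOXP2 it was 2.52 (95% interval 1.22 to 4.82). The interval lay below 1 for 5 of 12 epithelial genes, CLDN1, KRT18, VIL1, CDX2 and CDX1. It did so as well for 1 of 8 genes of the Hedgehog list, SHH, the ligand that gut epithelium secretes. SHH had 121 counts in mesenchyme and 3 in muscle, a ratio of 0.25 (95% interval 0.0509 to 0.749). Single genes of other lists also had intervals that left out 1. LAMA4, TNC, STMN3, SMAD9, HSPA2, MYL12A and NDUFA9 lay above it, and HSPA4 and RPL11 below it. These genes were named after their values were seen, and the intervals do not include the spread between samples.

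The layer difference of control midgut was then set against that of Hoxd13 midgut and hindgut, by a test of the difference itself. For Hoxd13 midgut 0 of 614 genes passed (0%; 36 at an unadjusted p under 0.05). For hindgut 1 passed (0.163%; 22 unadjusted), ACTG2. Its log2 difference over mesenchyme was 1.60 ± 0.15 in midgut, 1.03 ± 0.15 in Hoxd13 midgut and 0.59 ± 0.15 in hindgut, and midgut minus hindgut was 1.01 ± 0.21 (edgeR adjusted p = 0.0036). The mean level of ACTG2 was 2504 ± 539 CPM in mesenchyme and 7774 ± 3051 CPM in muscle of midgut, against 4418 ± 1353 and 6492 ± 917 CPM in hindgut. This call was lost without the sample block (adjusted p = 0.551), by DESeq2 (adjusted p = 0.342), with no filter on low counts (edgeR adjusted p = 0.189) and without midgut replicate 3 (edgeR adjusted p = 0.0718). TAGLN, at 1.67 ± 0.18 in midgut and 0.77 ± 0.15 in hindgut, MYH11, at 1.64 ± 0.17 and 0.78 ± 0.16, and CSRP1, at 1.59 ± 0.32 and 0.19 ± 0.25, did not pass this test (edgeR adjusted p = 0.0575, 0.0641 and 0.0905). For DES the values were 1.45 ± 0.20 in midgut, 1.45 ± 0.18 in Hoxd13 midgut and 1.09 ± 0.16 in hindgut. Of the lower genes, KRT7 stood at -0.96 ± 0.20, -0.99 ± 0.19 and -0.98 ± 0.21 in the same order, and MYH9 at -0.82 ± 0.18, -0.94 ± 0.17 and -0.69 ± 0.19. Without hindgut replicate 1, which had the deepest mesenchyme region of the series, 9 genes passed, 6 higher and 3 lower. This alternative was added after the data had been seen.

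Within control midgut, the circumferential muscle was also compared with the inner longitudinal muscle, whose regions held only 14305 to 17606 counts. Of 614 genes 4 passed (0.651%; 45 at an unadjusted p under 0.05), 3 of them higher in the circumferential layer. ACTG2 was higher by 1.02 ± 0.18 (edgeR adjusted p = 0.000132), MYL9 by 1.37 ± 0.33 (edgeR adjusted p = 0.0146) and TAGLN by 0.99 ± 0.26 (edgeR adjusted p = 0.0485). ACTG2 had 4260.0, 3205, 3761 and 3780.5 CPM in the longitudinal regions of replicates 1 to 4, each below the circumferential region of its own sample, and replicate 1 lay above the lowest circumferential value. The gene that was lower, known only as ENSGALG00000039249, had 0 counts in all circumferential regions and 5, 5, 3 and 2 in the longitudinal ones. DES (1.13 ± 0.31, edgeR adjusted p = 0.063) and MYH11 (0.81 ± 0.23, edgeR adjusted p = 0.0895) did not pass. Without the sample block 0 genes passed.

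Both muscle layers were compared with the same mesenchyme regions, so their differences share those values and are only given side by side. ACTG2 differed from mesenchyme by 1.60 ± 0.15 in circumferential and 0.58 ± 0.18 in longitudinal muscle. For MYL9 the values were 1.64 ± 0.21 and 0.27 ± 0.34, and for DES 1.45 ± 0.20 and 0.33 ± 0.32. For ACTA2 they were 1.16 ± 0.23 and 1.44 ± 0.29, and for COL4A2 1.45 ± 0.35 and 1.51 ± 0.46.

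**Figure D5:**
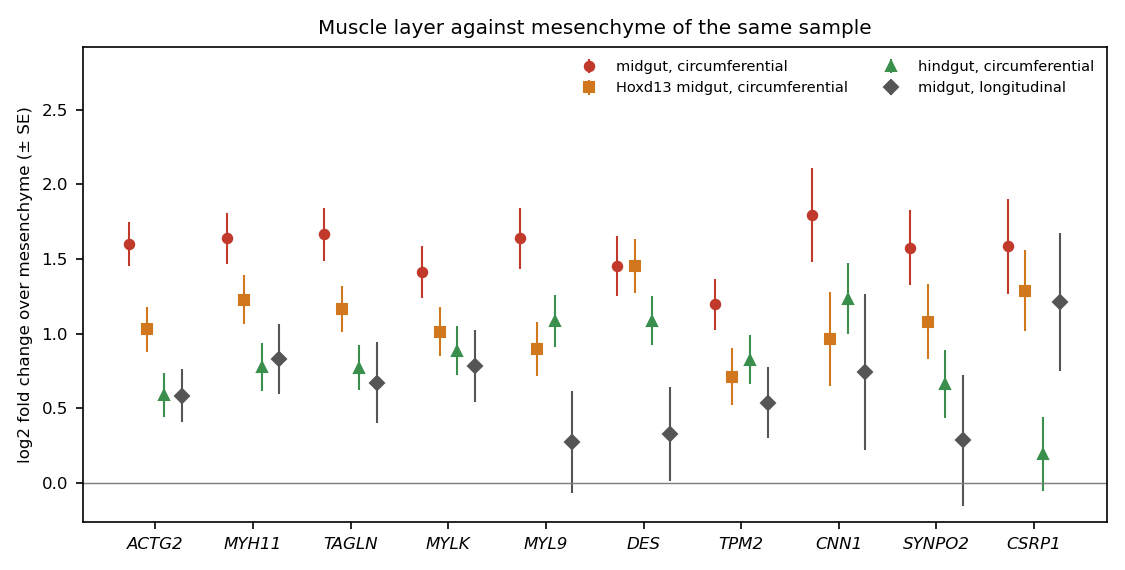
Log2 difference from the mesenchyme of the same samples for 10 contractile genes, as fitted value ± SE over 4 samples, for the circumferential muscle of midgut, Hoxd13 midgut and hindgut and for the longitudinal muscle of midgut. The circumferential muscle of midgut (red) is at 1.20 to 1.80 for all 10 genes, and hindgut (green) is at 0.19 to 1.23.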

How the data were processed

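The authors deposited 1 table of raw counts, 1 column for each layer of each sample, with no normalisation visible in it. Per the series text, reads were assigned to layers by barcode. The submitters' processing notes name genome build GRCg6a, UMI-tools, STAR, MultiQC, featureCounts and DESeq2, without roles or versions, and none of the sources used here says whether reads or molecules were counted. PCR copies are not independent molecules, so intervals and floors cover counting error only.

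The counts of all 36 regions were fitted with edgeR 4.0.16 in R 4.3.3 (quasi-likelihood test with TMM factors, after edgeR's expression filter at a minimum count of 10 and total of 15), with the sample as a block and a term for each group and layer, so that all samples share 1 estimate of the spread. Tests are two-sided, with Benjamini-Hochberg adjustment over 614 genes and a threshold of 0.05. SE is the log2 difference divided by the square root of the test's F. CPM are counts per TMM-scaled library total, and summed list levels are sums of CPM over all members in the table. The regions of a sample share a library, and their deviations from the layer means correlated at 0.115 to 0.312 across genes, against -0.272 to 0.171 for regions of different samples. Taking deviations from a mean of only 4 regions pushes values between different samples below 0, so this contrast is overstated. The value for mesenchyme 1 and circumferential 4 (0.171) exceeded the same-sample values of replicates 1 (0.115) and 3 (0.139). By chi-square over genes, no pair of replicates was as alike as sampling noise alone would make them.

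Text names, among genes with a symbol, the 15 of lowest p in each direction that kept it in 4 of 4 pairs, up to 4 genes of lowest p per list, 15 markers, and the leading genes of the other tests. A few genes that fall under this rule are not reported here. Further genes are said to have been named after their values were seen. The members, gene lists and this rule were chosen with earlier results of these data known. Settings tried were the 8 midgut regions alone, no longitudinal regions, no block, RLE factors, no TMM, no mitochondrial genes, other filters, DESeq2 1.42.0, limma 3.58.1 voom, and each midgut replicate left out. Only the main fit of circumferential muscle against mesenchyme was tested on simulated counts, with the same spread set for all genes. The other tests and settings were not simulated.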

Additional observations from a re-analysis of the deposited data

Results flagged for a closer look

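The levels of the named genes and the summed lists gave 236 groups of 4 regions, in which the highest or lowest region was examined for its distance from the others. In 12 of them it stood apart by Dixon's test, and chance alone flags about 1 in 20 groups.

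RAB6A stood apart in replicate 2 of both layers, with 789.7 CPM in mesenchyme and 4323 CPM in muscle. In the circumferential muscle, replicate 2 was also low for MYL4 (186 CPM) and for the summed mechanical response and actomyosin list (14153 CPM), and high for COL1A1 (10551 CPM). Replicate 3 was high for DSP (531 CPM), replicate 4 for HBAD (372 CPM) and replicate 1 for the summed TGF-beta list (2112 CPM). In the mesenchyme, replicate 1 was low for CDH17 (238 CPM) and MYO1A (197 CPM), replicate 4 was high for FOXF2 (168 CPM), and replicate 3 was high for the summed posterior HOX list (16.4 CPM).

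ACTG2 was flagged because its difference between the layers was larger in midgut than in hindgut, by 1.01 on the log2 scale in a test of that difference (edgeR adjusted p = 0.0036). The difference was above 0 under all 9 other settings tried for it, at 0.83 to 1.32, and it passed in 5 of them.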

How the results depend on the processing

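The count of 108 genes was within 1.5 times for 10 of 15 settings. It was 47 (39 higher, 8 lower) with no replicate block in the fit, 172 (10 higher, 162 lower) with no filter on low counts, and 64 (39 and 25) with a filter of 10 counts in each column of a layer. By limma voom 26 genes were lower. With 1 midgut replicate left out it was 59 to 102, with 38 to 53 higher and 18 to 49 lower. No gene that passed changed sign, except 6 with no filter, where the median of all genes moved to -0.74 and the split of calls with it. In that fit the values of LPP (-0.26), FLNA (-0.19), COL3A1 (-0.42), COL1A1 (-0.54), COL6A1 (-0.0831), COL12A1 (-0.11), FN1 (-0.24), PRELP (-0.00649), LUM (-0.13), LTBP1 (-0.19), TLN1 (-0.14), KCNMA1 (-0.0725), MEIS1 (-0.12), CDON (-0.20), BOC (-0.12), CYTB (-0.48) and NOTCH2 (-0.33) were below 0 yet above that median. Of these, COL1A1 and CYTB passed as lower with no filter (edgeR adjusted p = 0.0233 and 0.000966), though neither passed in the main fit. With a midgut replicate left out COL1A1 ranged from -0.12, without replicate 2, to 0.12. Without hindgut replicate 1, 109 genes passed, 65 of them higher. In all, 13 of the 108 genes passed under all 15 settings. The share of calls that were higher was 60.2% as reported, 73.7% by limma voom, 83.0% with no block and 5.81% with no filter.

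For the difference from Hoxd13 midgut, leaving out a midgut replicate gave 0 to 3 genes, of which 0 to 3 were lower. For that from hindgut it was 0 with no replicate block, with no filter and by DESeq2, 0 to 3 with a midgut replicate left out (0 to 3 higher, 0 to 1 lower), and 9 without hindgut replicate 1 (6 higher, 3 lower). Circumferential against longitudinal muscle gave 0 genes with no replicate block, 17 with no filter (16 higher), and 3 to 4 with a midgut replicate left out (2 to 3 higher, 0 to 1 lower). The cause of these shifts was not tested. The shallow muscle regions limit all counts. In a single region 3 counts are 69.7 to 117 CPM, so absence of a gene from that region was not detectable below that level. For a gene at 0 in all muscle regions the limit is lower and is not given here.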

Other observations

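Beyond the lists and the rule for named genes, 51 genes passed the test between circumferential muscle and mesenchyme of control midgut. Those given here were picked after their values were seen, and the values are log2 differences ± SE. The focal adhesion protein TNS1 (0.70 ± 0.17) and the actin regulators CAP2 (1.87 ± 0.40) and MTSS2 (0.95 ± 0.19) were higher. CAP2, which binds actin monomers and is known from striated muscle, had 72.5, 48.2, 49.2 and 46.5 CPM in mesenchyme and 196, 209, 202 and 172 CPM in muscle, so every muscle region lay well above every mesenchyme region. RBPMS2, an RNA-binding protein of visceral smooth muscle and its precursors, had 145, 73.8, 85.3 and 98.2 CPM in mesenchyme and 78.2, 186, 455 and 343 CPM in muscle. It differed by 1.48 ± 0.32, but replicate 1 went the other way. The netrin NTN3 (1.34 ± 0.34) had 99.7, 70.6, 105 and 82.7 CPM in mesenchyme and 274, 232, 202 and 200.3 CPM in muscle, without overlap. In midgut mesenchyme CAP2, RBPMS2 and NTN3 lay under the filter level of about 224 CPM in every region. The filter could let such genes in through the muscle regions where they were high. The lack of overlap of CAP2 and NTN3 is therefore no separate evidence. TNS1, CAP2, MTSS2 and NTN3 passed with each midgut replicate left out in turn, and RBPMS2 did so except without replicate 3. These 5 genes did not pass with no filter on low counts.

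Genes with an Ensembl identifier alone made up 7 of the higher and 12 of the lower calls. Among them ENSGALG00000033036 had 90.6, 231, 62.3 and 56.9 CPM in mesenchyme and 1682, 790.2, 278 and 200.3 CPM in muscle, the widest fitted difference of the genes that passed (2.64 ± 0.28). Replicate 1 was highest in muscle and replicate 2 in mesenchyme. ENSGALG00000038760 was the most abundant gene that was lower, in CPM, with 16685 ± 2378 CPM in mesenchyme and 10259 ± 1337 CPM in muscle (-0.70 ± 0.10).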
